A study of Homo sapiens with 6 samples.

Results

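Hypoxia-inducible factors (HIFs) and a set of their target genes were examined in ZR-75-1 cells, an oestrogen receptor (ER)-positive human breast cancer cell line, after CDK4/6 inhibition. The genes were 10, taken by symbol from the 60656 genes in the count table: the HIF alpha subunits HIF1A and EPAS1 and the targets VEGFA, CA9, BNIP3, BNIP3L, NDRG1, EGLN3, ANKRD37 and DDIT4. All cells were parental, with no RB1 deletion. One group of 3 libraries had received abemaciclib, a CDK4/6 inhibitor, at 500 nM for 4 days, and the other group of 3 had received the solvent DMSO for the same time. Libraries read the 3′ end of each polyadenylated transcript, so levels of different genes can be compared without regard to transcript length.

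Cells make HIF alpha subunits continuously and, in the presence of oxygen, hydroxylate them through the EGLN enzymes. The VHL ubiquitin ligase then marks them for destruction. Where oxygen is short the alpha subunit survives, pairs with ARNT and binds hypoxia response elements, short DNA stretches with the core ACGTG or GCGTG. Control of the alpha subunits is thus mainly at the protein level, which RNA counts do not measure, whereas their targets report HIF activity in RNA. Oxygen can run short in crowded cultures, and the comparison of the targets served as a check on culture density. Both groups grew in the same medium, and how dense the cells were at harvest is not in the labels.

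The promoters of the targets with a RefSeq entry and at least 1 core are shown because the core is the feature by which HIF reads these genes. Sequences are from RefSeq on GRCh38.p14, written 5′ to 3′ along the gene from 250 bases before the start site to 50 after it, and capitals mark the core on either strand (a core on the other strand reads CACGT or CACGC). The CA9 window lies on the plus strand (chr9:35673678-35673977), the BNIP3 window on the minus strand (chr10:131981874-131982173), and the ANKRD37 (chr4:185396591-185396890) and DDIT4 (chr10:72273674-72273973) windows on the plus strand.
CA9: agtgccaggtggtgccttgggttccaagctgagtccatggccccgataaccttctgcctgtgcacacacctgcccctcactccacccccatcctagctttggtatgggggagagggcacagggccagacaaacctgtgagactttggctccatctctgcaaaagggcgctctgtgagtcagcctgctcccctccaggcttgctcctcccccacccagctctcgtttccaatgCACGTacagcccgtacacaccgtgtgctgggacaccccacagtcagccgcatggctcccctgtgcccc
BNIP3: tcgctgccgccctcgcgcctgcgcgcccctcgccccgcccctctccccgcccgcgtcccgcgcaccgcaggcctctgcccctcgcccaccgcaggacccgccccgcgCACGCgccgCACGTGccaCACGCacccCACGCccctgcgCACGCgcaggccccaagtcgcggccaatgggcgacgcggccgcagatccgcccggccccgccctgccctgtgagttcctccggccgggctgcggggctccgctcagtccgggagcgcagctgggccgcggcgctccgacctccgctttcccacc
ANKRD37: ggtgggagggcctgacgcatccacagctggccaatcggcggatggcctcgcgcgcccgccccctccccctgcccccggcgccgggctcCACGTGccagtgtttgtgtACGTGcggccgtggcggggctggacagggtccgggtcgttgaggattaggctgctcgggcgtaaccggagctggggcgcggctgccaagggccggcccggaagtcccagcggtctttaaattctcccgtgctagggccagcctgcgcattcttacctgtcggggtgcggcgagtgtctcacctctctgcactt
DDIT4: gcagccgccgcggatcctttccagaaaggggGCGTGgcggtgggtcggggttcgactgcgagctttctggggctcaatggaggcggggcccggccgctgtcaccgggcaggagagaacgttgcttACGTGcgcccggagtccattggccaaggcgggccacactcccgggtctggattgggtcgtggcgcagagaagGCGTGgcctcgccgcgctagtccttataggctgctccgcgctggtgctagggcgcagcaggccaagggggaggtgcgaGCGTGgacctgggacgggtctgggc

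Promoter entries were matched by symbol for 7 of the 10 genes, all but VEGFA, BNIP3L and NDRG1, and 6 of the 7 held a core. CA9 had 1 core, which began 18 bases before the start site. BNIP3 had 6 matches, of which a pair of ACGTG matches on opposite strands shared 4 bases in the palindrome CACGTG. ANKRD37 had 3 matches, again with a CACGTG palindrome, and DDIT4 had 4. HIF1A has 2 start sites in the table, of which the window of the first (chr14:61695263-61695562) had 1 GCGTG and that of the second (chr14:61697462-61697761) had none. The EPAS1 window had 1 GCGTG, and EGLN3 had none in its window. Either core was found in 48.4% of the 35116 promoter windows of this length, ACGTG in 21.4% and GCGTG in 36.5%, so a match is a description and not a bound site.

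The libraries held 3317860 to 4013156 counts on genes. A gene at 0 counts in a library could have been present at up to 0.740 to 0.909 CPM (counts relative to the library size after TMM scaling), the level of 3 counts, which allows for counting error alone. The luminal markers ESR1, GATA3, FOXA1, KRT8, KRT18 and KRT19 were all detected, with a summed level of at least 6539 CPM in every library. With abemaciclib, mean ESR1 went from 211 to 373 CPM, KRT19 from 3131 to 4280 CPM and KRT18 from 689 to 543 CPM. Their adjusted P values from edgeR were 2.92e-07, 0.000207 and 0.00515, and GATA3, FOXA1 and KRT8 were not under 0.05. Of 7 markers of stromal, endothelial, leukocyte and basal cells, 6 had 0 counts in all libraries and COL1A1 had means of 13.1 CPM with DMSO and 12.5 CPM with abemaciclib. MKI67, TOP2A and CCNB1, which mark cycling cells, fell with abemaciclib, and their summed level went from between 2595 and 2776 CPM to between 126 and 138 CPM. In bulk RNA, fewer cells of a type and less RNA per cell cannot be told apart.

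Of the 10 genes, 6 had enough counts to be tested. HIF1A rose modestly with abemaciclib, and VEGFA, BNIP3, BNIP3L, EGLN3 and DDIT4 did not pass the threshold. With P values from edgeR (quasi-likelihood), adjusted over the 10863 genes tested, 1 of the 6 was higher and 0 were lower at the 0.05 threshold. At an unadjusted P under 0.05, 2 were higher and 0 lower. DESeq2, which gave an adjusted P for EPAS1 as well, called 0 higher and 0 lower of 7. Among all genes tested, 25.7% were called, 12.5% as higher and 13.3% as lower, so 1 call in 6 was near the share among all genes. The log2 fold change (log2FC, abemaciclib against DMSO) of the 6 had a median of 0.23, against −0.00 over all genes tested, and of 0.142 without abemaciclib replicate 2. EPAS1, NDRG1 and ANKRD37 had too few counts for the test and CA9 had 0 counts in all 6 libraries. Fitted without a filter on low counts, EPAS1, NDRG1 and ANKRD37 had negative log2FC values (−1.20, −0.92 and −1.95). The median of the 9 genes in that fit was 0.18.

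HIF1A encodes the alpha subunit of HIF-1 and is located on chromosome 14 (61695513 to 61748259 of GRCh38, the build of all positions given). It was the most abundant of the 10, with 86.7, 93.3 and 113.6 CPM in the DMSO libraries and 123.1, 127.1 and 124.6 CPM in the abemaciclib libraries. The groups did not overlap, and the abemaciclib libraries were closer to each other than the DMSO libraries were. Means were 97.9 ± 14.0 and 125 ± 1.99 CPM (SD, n = 3 in each group). The log2FC was 0.35 (SE 0.12, 95% interval 0.11 to 0.60, adjusted P = 0.0290, edgeR), a 1.28-fold difference. The call was at the edge of what these libraries can show. The adjusted P was 0.0502 with DESeq2, 0.179 without DMSO replicate 1, 0.131 without DMSO replicate 2 and 0.0857 without abemaciclib replicate 2, and the log2FC was between 0.27 and 0.47 across all alternatives.

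**Figure D1:**
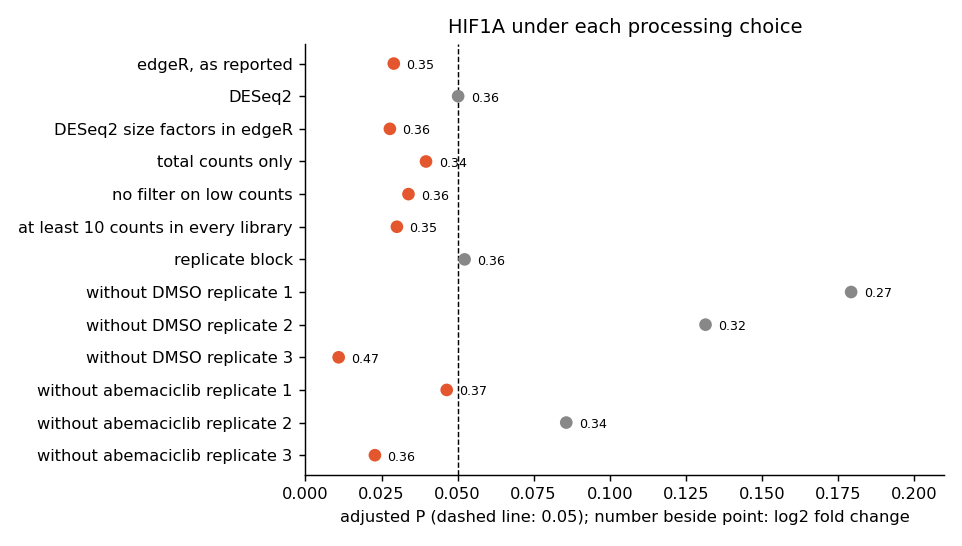
Adjusted P of HIF1A (horizontal axis) under each processing choice (rows), with the log2FC printed beside each point, orange where the adjusted P is under 0.05 (dashed line) and grey where it is not. The fold change stays positive throughout, while the adjusted P runs from 0.0109 to 0.179.

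EPAS1, on chromosome 2 from 46293667 to 46386697, encodes HIF-2 alpha, the second oxygen-regulated alpha subunit. It had 25, 8 and 8 counts in the DMSO libraries and 9, 7 and 3 counts in the abemaciclib libraries. A single library, DMSO replicate 1, held 25 of the 41 DMSO counts, and the groups overlapped. Fitted without a filter on low counts, its log2FC was −1.20 (adjusted P = 0.262 from edgeR). HIF1A transcripts thus far outnumbered EPAS1 transcripts, with 97.9 against 4.02 CPM with DMSO and 125 against 1.75 CPM with abemaciclib.

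BNIP3 and BNIP3L encode related receptors in the outer mitochondrial membrane that recruit the autophagy machinery to mitochondria. Both are textbook HIF-1 targets, and they were the most abundant targets here. BNIP3, on chromosome 10 from 131967684 to 131981967, had 47.3, 45.7 and 46.6 CPM with DMSO and 54.8, 58.5 and 54.0 CPM with abemaciclib. The groups did not overlap, but the log2FC of 0.26 (SE 0.15, 95% interval −0.04 to 0.56) had an adjusted P of 0.202 in edgeR's test. BNIP3L, on chromosome 8 from 26383054 to 26505636, had 54.5, 49.9 and 56.6 CPM with DMSO and 56.9, 72.5 and 70.8 CPM with abemaciclib. The abemaciclib libraries again lay above the DMSO libraries, replicate 1 by a margin of under 1 CPM, and the log2FC was 0.32 (SE 0.14, 95% interval 0.02 to 0.61, adjusted P = 0.108 from edgeR's test). Without abemaciclib replicate 1, the BNIP3L value was 0.42 and its adjusted P was 0.0464. Together with HIF1A these made 3 of the 6 tested genes whose abemaciclib libraries were all above the DMSO libraries, against 19.1% of all genes tested; 0 of the 6 were below throughout, against 20.1%, and 39.1% of all genes were separated in either direction. Reads of BNIP3 could be shared with 44 annotated pseudogenes, which held 15 to 34 counts per library against 154 to 237 for the gene. The 3′ ends of BNIP3L overlap PNMA2 on the opposite strand over 22.1% of their length, and PNMA2 had 2 counts in all.

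The BNIP3 and BNIP3L proteins work beside other mitophagy genes. Of a list of 13 such genes, 12 were tested, 2 were higher and 0 lower (edgeR, adjusted P under 0.05; 6 higher and 1 lower at an unadjusted P under 0.05; DESeq2 also called 2 higher and 0 lower). The share called, 16.7%, was under the 25.7% of all genes tested, and the list's median log2FC was 0.23. The genes that rose were BCL2, which restrains both apoptosis and autophagy, from 104 ± 9.64 to 202 ± 11.3 CPM (SD, n = 3 in each group), and BECN1, which starts autophagosome formation, from 69.3 ± 5.23 to 125 ± 14.8 CPM. Both have roles well beyond mitophagy, and 39.6% of the 3′ ends of BECN1 are overlapped by genes on the opposite strand. The mitophagy receptor FUNDC1 had a log2FC of 0.51 (adjusted P = 0.0582) and the kinase PINK1 1.00 (adjusted P = 0.0825), both short of the threshold in edgeR's test. With DMSO replicate 3, abemaciclib replicate 1 or abemaciclib replicate 3 left out, 4 genes of the list were higher.

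DDIT4, on chromosome 10 from 72273919 to 72276036, encodes REDD1, an inhibitor of mTORC1 that hypoxia, glucocorticoids and the transcription factor ATF4 can all induce. It had 17.4, 21.1 and 19.7 CPM with DMSO and 20.6, 26.2 and 19.7 CPM with abemaciclib, so the groups overlapped. The log2FC was 0.20 (SE 0.22, 95% interval −0.25 to 0.64, adjusted P = 0.569 from edgeR's test), and it was 0.0573 without abemaciclib replicate 2 and 0.119 without DMSO replicate 1. Most genes of the ATF4 pathway fell: 9 of its 11 genes tested were lower and ATF5 alone was higher (edgeR, adjusted P under 0.05), and the list's median was −1.17. In all 90.9% of the list was called, against 25.7% of all genes tested. ATF4 itself fell from 156 ± 19.0 to 52.4 ± 5.48 CPM (SD, n = 3 in each group). Its targets CHAC1, which degrades glutathione, SLC7A11, the cystine importer, and DDIT3, a factor of the stress response, had log2FC values of −4.16, −3.68 and −2.22, and all passed the threshold. MARS1 on the opposite strand overlaps 18.9% of the 3′ ends of DDIT3 and had 850 counts in all against 151 for DDIT3. The adjusted P of ATF5 went from 0.0113 to 0.0915 without DMSO replicate 1 and to 0.0909 without abemaciclib replicate 1. Whether the ATF4 pathway had a part in the DDIT4 value was not tested.

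VEGFA, on chromosome 6 from 43770184 to 43786487, encodes the main growth factor for blood vessels. It had 7.54, 9.51 and 11.5 CPM with DMSO and 7.87, 4.93 and 5.40 CPM with abemaciclib. Abemaciclib replicate 1 lay within the DMSO range and the other two lay under it. The log2FC was −0.66 (SE 0.37, 95% interval −1.40 to 0.09, adjusted P = 0.202 from edgeR's test), the only negative value among the 6 genes tested. The counts behind it were few, 96 with DMSO and 66 with abemaciclib over 3 libraries each.

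EGLN3, on chromosome 14 from 33924227 to 34462774, encodes a HIF prolyl hydroxylase that HIF itself induces. It had 5.51, 2.67 and 7.88 CPM with DMSO and 3.93, 8.39 and 5.67 CPM with abemaciclib. The libraries of both groups were interleaved, and the log2FC of 0.18 (SE 0.45, adjusted P = 0.822 from edgeR's test) carried a 95% interval from −0.75 to 1.11. That interval includes a rise of 2-fold. The sign of the EGLN3 value depended on single libraries, at −0.14 without DMSO replicate 2 and −0.15 without abemaciclib replicate 2.

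ANKRD37, on chromosome 4 from 185396021 to 185400628, is a HIF-1 target that encodes a small ankyrin repeat protein. It had 14, 6 and 9 counts in the DMSO libraries and 2, 5 and 1 counts in the abemaciclib libraries. Every abemaciclib library was lower, which was the case for 5.21% of the 9566 genes that had counts but too few for the test, while 3.24% of those genes lay above throughout. Fitted without a filter on low counts, the log2FC was −1.95, with an unadjusted P of 0.0291 and an adjusted P of 0.153 from edgeR, above the threshold. In that fit 13.5% of 20429 genes were called. The 3′ end of ANKRD37 overlaps UFSP2 on the opposite strand over 50.0% of its length, and UFSP2 had 747 counts in all against 37 for ANKRD37, so its counts are uncertain.

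NDRG1, on chromosome 8 from 133237175 to 133302022, encodes a cytoplasmic protein induced strongly by hypoxia and by differentiation in epithelial cells. It had 6, 7 and 3 counts with DMSO and 0, 0 and 9 counts with abemaciclib. All 9 counts of the abemaciclib group were in replicate 3, the highest count of any library, and the groups overlapped. Fitted without a filter on low counts, the log2FC was −0.92 (adjusted P = 0.628 from edgeR).

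CA9, on chromosome 9 from 35673928 to 35681159, encodes carbonic anhydrase IX, a cell surface enzyme widely used as a marker of hypoxic tumour tissue. It had 0 counts in each of the 6 libraries, which allows a level of up to 0.740 to 0.909 CPM per library. No other annotated gene overlaps its 3′ end. No fold change can be given.

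In order of level with DMSO, HIF1A was followed by BNIP3L, BNIP3, DDIT4, VEGFA, EGLN3, EPAS1, ANKRD37 and NDRG1, with CA9 at 0. The libraries of neighbouring genes did not overlap down to DDIT4 and VEGFA, whereas VEGFA and EGLN3, EGLN3 and EPAS1, EPAS1 and ANKRD37, and ANKRD37 and NDRG1 overlapped. With abemaciclib the libraries of BNIP3L and BNIP3 overlapped, whereas those of EGLN3 and EPAS1 did not. The summed level of the 10 genes was 228 to 262 CPM in the DMSO libraries and 270.5 to 301 CPM in the abemaciclib libraries, most of it from HIF1A, BNIP3 and BNIP3L.

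Among genes that sense oxygen or control HIF, SIAH2 rose and RBX1 fell. Of a list of 18, 17 were in the count table under their symbols and 12 were tested. Of these 12, 1 was higher, 1 was lower and 10 did not pass the threshold, with a median log2FC of 0.03. The share called was thus 16.7%, under the 25.7% of all genes tested. ARNT, the shared partner of the alpha subunits, had 41.5 CPM with DMSO and 42.4 CPM with abemaciclib, a log2FC of 0.03 (95% interval −0.32 to 0.38). VHL, which recognizes hydroxylated HIF alpha, had a log2FC of 0.26 (95% interval 0.03 to 0.49, adjusted P = 0.0863 from edgeR's test). The adjusted P of VHL was 0.0263 without abemaciclib replicate 3. SIAH2, a ubiquitin ligase that targets the EGLN enzymes, rose from 118 ± 8.11 to 161 ± 3.39 CPM (± SD, 3 libraries per group), with a log2FC of 0.45 (SE 0.11, adjusted P = 0.00245). RBX1, the RING subunit shared by cullin ligases including that of VHL, fell from 116 ± 3.33 to 81.8 ± 11.3 CPM (± SD, 3 libraries per group), with a log2FC of −0.51 (SE 0.12, adjusted P = 0.00272).

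The main hydroxylases could not be read from these counts. EGLN1 had 7 counts over all 6 libraries and EGLN2 had 4. Their 3′ ends overlap another annotated gene on the same strand over 92.6% and 98.8% of their length, and those overlapping genes had 0 counts too. Reads on more than 1 gene are left uncounted by featureCounts unless it is told otherwise. The setting used is not given in the sources used here, and the part of these overlaps in the low counts was not tested.

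**Figure D2:**
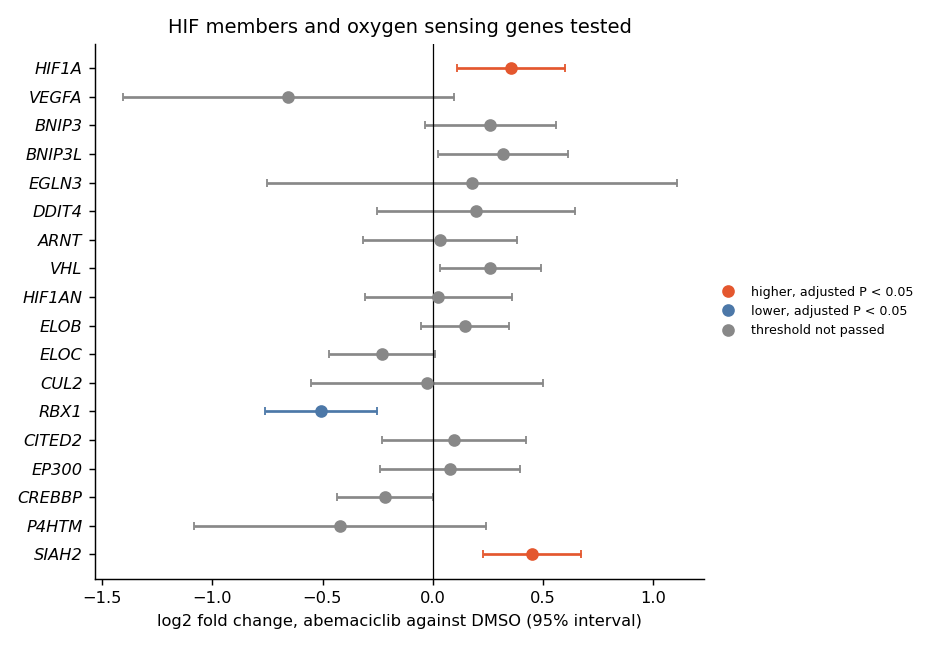
Log2 fold change of abemaciclib against DMSO (horizontal axis) with its 95% interval for the 6 HIF genes and 12 oxygen sensing genes tested (rows). HIF1A and SIAH2 were called higher (orange), RBX1 was called lower (blue), and the intervals of VEGFA, EGLN3 and P4HTM are the widest.

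HIF-1 is best known for raising glucose uptake and glycolysis, and genes of this route changed in both directions. Of 21 glycolytic HIF targets, 17 were tested, 6 passed the threshold as higher and 4 as lower (edgeR), and the list's median was −0.07. Calls in either direction made up 58.8% of the list, against 25.7% of all genes tested. With at least 10 counts in every library, 15 of the list were tested, 5 higher and 3 lower. The median was positive at 0.0725 with DESeq2, 0.24 with no filter on low counts and 0.0178 without abemaciclib replicate 3. Genes of the first steps were among those that rose. SLC2A1, the glucose transporter GLUT1, had 70.2, 78.4 and 60.3 CPM with DMSO and 107, 90.3 and 103 CPM with abemaciclib, a log2FC of 0.53 (SE 0.13, adjusted P = 0.00337). HK1, the first enzyme of the route, rose by 0.70 on the log2 scale (SE 0.12, adjusted P = 3.63e-05), whereas HK2, the hexokinase more closely tied to HIF, had a value of −0.26 (95% interval −0.94 to 0.42).

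PKM, which encodes pyruvate kinase, rose most among the abundant genes of the route. It had 427, 483 and 482 CPM with DMSO and 927, 1054 and 973 CPM with abemaciclib, a log2FC of 1.09 (SE 0.09, adjusted P = 2.5e-10). A count at the 3′ end does not separate the PKM1 and PKM2 forms. PFKFB4, a regulator of phosphofructokinase, had a log2FC of 1.63 from few counts (4 to 6 per DMSO library and 15 to 19 per abemaciclib library). It passed the filter on low counts through the abemaciclib libraries alone. Its adjusted P of 0.0286 rose to between 0.0703 and 0.115 when any 1 DMSO library, abemaciclib replicate 1 or abemaciclib replicate 3 was left out, and was 0.0870 with DESeq2. PFKFB3, a second regulator of this kind, had a log2FC of 0.63 (adjusted P = 0.0391 in edgeR, 0.0973 in DESeq2), and GPI, the isomerase after hexokinase, rose by 0.27.

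The 4 glycolytic targets that fell were ENO2, ENO1, TPI1 and SLC16A3. ENO1, the main enolase, had 798, 761 and 800 CPM with DMSO and 574, 486 and 544 CPM with abemaciclib, a log2FC of −0.56 (SE 0.09, adjusted P = 2.97e-05). ENO2, the neuronal enolase, fell from 49.1 ± 4.66 to 17.0 ± 5.96 CPM (± SD, 3 libraries per group), with a log2FC of −1.54 (adjusted P = 2.41e-06). SLC16A3, the lactate exporter MCT4, had a log2FC of −1.51 (adjusted P = 0.0379). It passed the filter on low counts through the DMSO libraries alone. CSNK1D on the opposite strand overlaps 31.4% of its 3′ ends and had 2683 counts in all against 80 for SLC16A3, so these counts are uncertain too. The SLC16A3 call was lost with DESeq2 and without any single library other than DMSO replicate 3, where the log2FC was between −1.83 and −1.14. PGK1 and LDHA, among the targets most often used to read HIF-1 activity, had log2FC values of −0.08 (95% interval −0.31 to 0.14) and −0.24 (95% interval −0.50 to 0.01), and neither passed the threshold. ALDOA had 3 counts in all and overlaps another gene on the same strand over 94.5% of its 3′ ends.

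**Figure D3:**
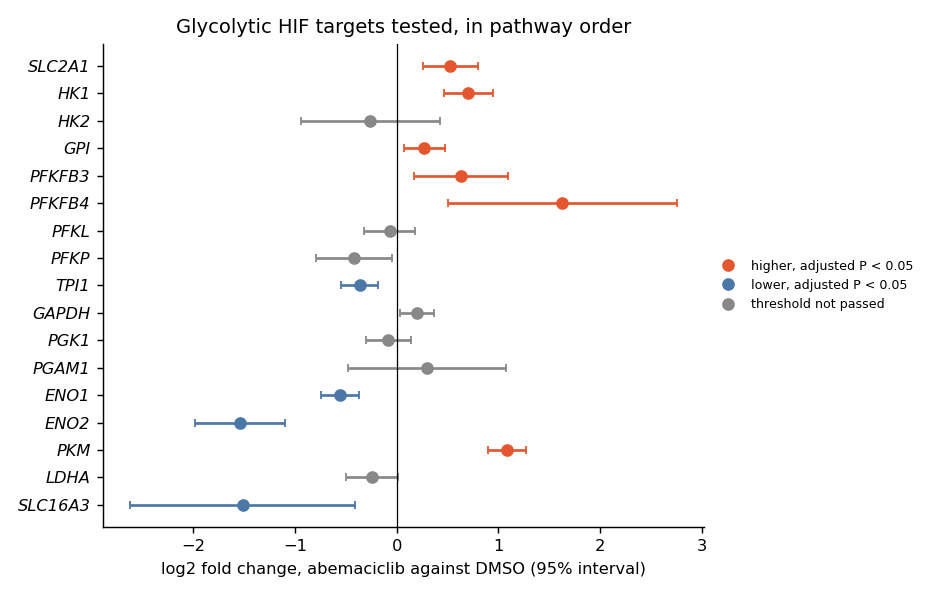
Log2 fold change of abemaciclib against DMSO with its 95% interval for the 17 glycolytic HIF targets tested, from glucose uptake at the top to lactate export at the bottom. Of these, 6 are higher (orange), 4 are lower (blue) and 7 did not pass the threshold (grey).

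Among the other HIF targets, BHLHE40, CA12 and PLOD1 rose most. Of 38, 29 were tested, 8 were higher, 2 lower and 19 did not pass the threshold (edgeR, adjusted P under 0.05), and the median log2FC was 0.13. The called genes were 34.5% of those tested, against 25.7% among all genes. Genes of this list can have inducers other than HIF. The paper reports that oestrogen response gene sets rose with abemaciclib in this cell line. Mean ESR1 went from 211 CPM with DMSO to 373 CPM with abemaciclib in these libraries. Whether the oestrogen response had a part in the rises of this list, or in that of SIAH2, was not tested. BHLHE40, a transcriptional repressor, had 18.0, 18.7 and 11.8 CPM with DMSO and 52.9, 45.1 and 43.8 CPM with abemaciclib, a log2FC of 1.54 (SE 0.20, adjusted P = 7.83e-07). CA12, a cell surface carbonic anhydrase of the same family as CA9, had 42.1, 46.9 and 56.0 CPM with DMSO and 101, 99.7 and 121 CPM with abemaciclib, a log2FC of 1.15 (SE 0.14, adjusted P = 2.44e-07).

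Further genes of this list act on collagen. PLOD1, a lysyl hydroxylase, rose from 23.6 ± 4.18 to 46.1 ± 5.91 CPM (SD, n = 3 in each group) and P4HA1, a prolyl hydroxylase of collagen, from 79.0 ± 2.51 to 123 ± 5.40 CPM. P4HA2, of the same family as P4HA1, had a log2FC of 0.13 (adjusted P = 0.681), and LOX, which crosslinks collagen, had 0 counts in all libraries. PLOD2 fell from 32.2 ± 8.48 to 21.4 ± 1.60 CPM, a log2FC of −0.59 (adjusted P = 0.0373 from edgeR's test). Under DESeq2 the PLOD2 call did not hold, nor without DMSO replicate 2 (log2FC −0.36), abemaciclib replicate 1 (−0.55) or abemaciclib replicate 2 (−0.56). KLHL24, a ubiquitin ligase adaptor, also fell, from 14.4 ± 2.90 to 5.00 ± 2.82 CPM (SD, n = 3 in each group). The list's other calls were rises of KDM4B, STC2, STC1 and AK4, with log2FC values of 0.86, 0.67, 0.60 and 0.60. KDM4B had an adjusted P of 6.67e-08 from edgeR's test. AK4 had 0.0431 in edgeR and 0.109 in DESeq2, and its groups overlapped. HILPDA, KDM3A and MXI1, which HIF induces in many cell types, had log2FC values of −0.15, −0.41 and 0.06, and none of these 3 passed the threshold.

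Cell density also acts on targets of the YAP and TEAD factors, since crowding of epithelial cells keeps YAP out of the nucleus and leaves TEAD without its partner. Of 22 such targets, 13 were tested, 2 rose and 2 fell past the threshold (edgeR), and the list's median was −0.20. This made 30.8% called, against 25.7% of all genes tested. CCN1, a secreted matrix protein and classical YAP target, had 13.9, 13.1 and 11.2 CPM with DMSO and 30.3, 27.4 and 23.5 CPM with abemaciclib, a log2FC of 1.08 (SE 0.23, adjusted P = 0.000592). ARHGEF17 had a log2FC of 0.72 (adjusted P = 0.0186). Under DESeq2 the ARHGEF17 call did not hold, nor without DMSO replicate 1, DMSO replicate 2 or abemaciclib replicate 2, where the log2FC was 0.55, 0.73 and 0.65. CCDC80, a matrix protein, and PTPN14, which itself restrains YAP, had log2FC values of −2.36 (adjusted P = 0.000653) and −0.56 (adjusted P = 0.00743). CCDC80 passed the filter on low counts through the DMSO libraries alone. CCN2, the other classical target, had 8, 5 and 5 counts with DMSO and 1, 3 and 1 counts with abemaciclib, too few for the test, and ANKRD1 had 0 counts in all libraries.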

How the data were processed

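The authors trimmed reads (BBDuk), aligned them (STAR 2.7.5b, hg38) and counted them per gene with featureCounts 2.0.1 on GENCODE v35, and the deposited values are these raw counts, unfiltered, for 60656 genes. Whether counting used strand is not given in the sources used here. Labels gave treatment and replicate number. Per the study's methods, replicates in cell lines were separate cultures, in an experiment done once. Symbols were matched by identifier for 60401 genes. Positions and overlaps of 3′ ends (the last 300 bases of each coding transcript) are from GENCODE v44 on GRCh38.

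Counts were analysed with edgeR 4.0.16 under R 4.3.3 (genes kept by filterByExpr, TMM scaling, glmQLFit and glmQLFTest, two-sided, Benjamini–Hochberg, threshold 0.05), without covariates. This filter keeps genes with enough counts in at least 3 libraries, the size of 1 group. A gene can thus pass through 1 group alone. CPM used the TMM-scaled library size. The standard error was the fold change divided by the square root of F. Alternatives were DESeq2 1.42.0, its size factors, total counts, no filter, at least 10 counts in every library, a replicate block and each library left out. On simulated counts with 200 genes changed, edgeR called 180 of 10691 genes and recovered 88.6% of the changed genes tested. With none changed it called 0 of 10686. Recovery at the fold changes and counts of the HIF genes was not tested.

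The members and lists were chosen with earlier results of these data known. The genes named are the 10 members, the 3 largest rises and 3 largest falls past the threshold in each list, and ARNT, EGLN1, VHL, SLC2A1, LDHA and PGK1. Other genes were named as list members after their values were seen. No list was tested as a set.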

Additional observations from a re-analysis of the deposited data

How the results depend on the processing

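With few counts behind most of these genes, depth limits what can be called: for EGLN3 the 95% interval spanned −0.75 to 1.11 on the log2 scale. Of the counts and medians under an alternative, 233 stayed within 1.5 times the value reported or within the spread between replicates and 43 moved. Of the values of single genes, 364 kept their direction and side of the threshold, 30 were weaker, 2 stronger and 4 reversed, and the cause was not tested. The reversed values were those of EGLN3 (−0.14 without DMSO replicate 2 and −0.15 without abemaciclib replicate 2) and ARNT (−0.0887 and −0.0356 without the same libraries), neither called under any alternative run, and with 1 library left out they ran up to 0.56 and 0.16. No gene of the HIF set was called lower under any alternative, but EPAS1, NDRG1 and ANKRD37 had too few counts for most of them.

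With DESeq2, 0 of the HIF genes were higher, 1 of the other HIF targets was lower, 1 of the YAP/TEAD targets was higher and the median of the glycolytic targets was 0.0725. With no filter on low counts, which adds genes, the medians were 0.24 for the glycolytic targets, −0.44 for the YAP/TEAD targets and −1.36 for the ATF4 pathway. With at least 10 counts in every library, which removes genes, 1 of the other HIF targets and 1 of the YAP/TEAD targets were lower and the ATF4 median was −0.998. With total counts only, 1 mitophagy gene was lower.

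With each of the 6 libraries left out in turn, the number higher was 0 to 2 for the HIF genes, 1 to 2 for oxygen sensing, 3 to 5 for glycolytic, 1 to 2 for YAP/TEAD, 0 to 1 for ATF4 and 2 to 4 for mitophagy genes. The number lower was 1 to 2 for the other HIF targets and 0 to 1 for mitophagy genes. Medians ran from 0.142 to 0.321 for the HIF genes, −0.0089 to 0.0679 for oxygen sensing, −0.0611 to 0.0178 for glycolytic, −0.32 to −0.17 for YAP/TEAD, −1.47 to −1.02 for ATF4 and 0.16 to 0.43 for mitophagy genes.

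Replicate numbers are shared between the groups, but same-numbered libraries did not deviate together (correlations of −0.04, 0.01 and −0.09), and 1 of 6 libraries correlated best with its own number. With a replicate block, 0 of the HIF genes were higher (HIF1A log2 fold change 0.36, adjusted P = 0.0523 from edgeR), 3 glycolytic targets were higher and 1 of the other HIF targets was lower. Over all genes the block gave 1139 higher and 1280 lower, against 1354 and 1442 without it.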

Other observations

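Some genes of this system had counts that were uneven between libraries of the same group. ARNT2, a second partner of the HIF alpha subunits, had 0, 22 and 4 counts in the abemaciclib libraries and 9, 8 and 6 counts with DMSO. CXCR4, a chemokine receptor and HIF target, had 2, 2 and 4 counts with DMSO and 14, 2 and 14 with abemaciclib. Both had too few counts for the test.

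ALDOC, the aldolase of brain and a HIF target, had 0 counts in all DMSO libraries and 4, 6 and 11 counts in the abemaciclib libraries, with 32.3% of its 3′ ends overlapped by a gene on the opposite strand. In the fit without a filter on low counts, its log2FC was 5.77 (adjusted P = 0.0129 from edgeR), where 13.5% of 20429 genes were called. Of the 9566 genes with counts but too few for the test, 3.24% lay above throughout with abemaciclib. ASNS, an ATF4 target with 11 counts in all, overlaps a gene on the same strand over 89.0% of its 3′ ends, as EGLN1, EGLN2 and ALDOA do.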
